A study of Mus musculus with 140 samples.

Results

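The class I olfactory receptor cluster is an array of receptor genes on mouse chromosome 7, and silencer intervals of 2 cell types were described across it. Its members were all protein-coding genes of the GENCODE M21 annotation (mm10) with symbols starting Olfr that lie inside the cluster window on chromosome 7. The rule found 129 genes of 21938 protein-coding genes, from Olfr543, which starts at position 102476579, to Olfr692, which ends at position 105369355. Of the 129 members, 5 have symbols ending in -ps1, a form used for pseudogenes, though the annotation lists them as protein-coding. The rule used position and gene symbol only, and no measured value. An interval belonged to a member when it overlapped the member's territory, meaning its body plus 10 kb on each side. By this rule 76 of the 89596 intervals in the fibroblast list and 98 of the 115165 intervals in the stem cell list lay in the cluster.

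The study screened mouse silencers with Ss-STARR-seq, in which sheared genomic DNA is cloned into a reporter plasmid and the reporter RNA that cells make from it is sequenced beside the plasmid library. The labels describe 140 libraries, of which 20 are of the input plasmid, 64 (in 4 output sets) of reporter RNA from embryonic fibroblasts (MEFs) and 56 (in 3 output sets) of reporter RNA from embryonic stem cells (mESCs). MEFs were grown in DMEM with fetal bovine serum, and mESCs in N2B27 medium with LIF and the inhibitors CHIR99021 and PD0325901. The labels give no genotype, strain, passage or clone for either cell type, and the input libraries carry the cell label of the mESCs although their molecule is genomic DNA. Each cell type has 1 interval list, so no value below has a replicate error, and no test between cell types was run.

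Olfactory receptors are G protein-coupled receptors, and each olfactory sensory neuron expresses a single receptor gene from a single allele while the others stay silent. Mammalian receptors fall into class I, related to the receptors of fish, and class II, and in the mouse the class I genes sit together in a single cluster that also holds the beta-globin genes and a group of Trim genes. Several class I receptors respond to carboxylic acids. Neither fibroblasts nor embryonic stem cells are olfactory neurons, so the intervals here come from cells in which these genes are normally silent, and the assay reads fragments on a plasmid rather than at their own locus.

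Some of the intervals are shown as sequence first. The 4 below are the overlapping MEF and mESC intervals in which the lower of both folds was highest, and the MEF interval is printed. All sequences are the plus strand of GRCm38.p6, the assembly that mm10 displays, with soft-masked repeat in lower case and all other bases in capitals.
Olfr572 intron, chr7:102926432-102926631: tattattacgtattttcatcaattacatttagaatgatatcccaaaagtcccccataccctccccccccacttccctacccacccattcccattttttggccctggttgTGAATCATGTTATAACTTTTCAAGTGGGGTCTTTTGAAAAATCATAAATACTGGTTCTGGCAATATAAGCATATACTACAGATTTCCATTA
before Olfr633, chr7:103943251-103943300: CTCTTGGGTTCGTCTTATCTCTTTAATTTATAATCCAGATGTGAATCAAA
Olfr78 intron, chr7:102750951-102751100: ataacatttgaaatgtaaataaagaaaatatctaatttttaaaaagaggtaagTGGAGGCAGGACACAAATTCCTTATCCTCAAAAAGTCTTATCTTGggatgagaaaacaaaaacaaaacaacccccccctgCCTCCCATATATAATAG
after Olfr572, chr7:102929629-102929927: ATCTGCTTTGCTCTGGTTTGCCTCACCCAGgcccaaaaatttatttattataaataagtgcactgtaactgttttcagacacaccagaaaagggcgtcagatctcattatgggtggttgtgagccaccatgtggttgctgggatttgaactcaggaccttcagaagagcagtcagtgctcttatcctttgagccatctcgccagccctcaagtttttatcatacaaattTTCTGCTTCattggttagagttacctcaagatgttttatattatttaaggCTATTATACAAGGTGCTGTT
The first of them was 200 bases long, 109 of them soft-masked, and the second, at 50 bases, held no masked base. Both of these hold the letters TGAATCA, at base 110 and base 42 counted from 1 at the left end, which fit the pattern TGANTCA that includes the AP-1 site. The fourth was mostly repeat, with 240 of its bases masked.

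The interval with the highest fold of the cluster in either list lay in an intron of Olfr572, 2.12 kb inside the gene. The MEF list gives it a fold of 13.6 and the mESC list 10.2, at the same coordinates. The fold is the authors' own deposited ratio for that interval. It is always above 2, and its numerator and its scaling are not given in these sources, so a high fold is not read as strong silencing. Folds take repeated values: 75 of the 76 MEF and 97 of the 98 mESC cluster folds recur exactly in their list, and 26 MEF intervals share this value of 13.6. A second shared interval, 1.02 kb past the end of Olfr572, was listed at a fold of 3.87 for MEFs and 6.68 for mESCs. Olfr572 was thus the nearest member of the highest and of the second-highest mESC fold of the cluster.

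Olfr78 is a receptor for short-chain fatty acids and lactate that is also found outside the nose, in the carotid body and kidney. Its territory held 3 MEF intervals with folds of 2.19, 3.06 and 4.36 and 5 mESC intervals with folds of 2.23, 2.40, 3.88, 6.10 and 2.32. Those with the highest fold in each list overlapped in the intron shown above, the MEF interval at 150 bp inside the mESC interval at 300 bp. Another interval of Olfr78 had identical coordinates in both lists, with folds of 3.06 in MEFs and 3.88 in mESCs. Its neighbour Olfr560, whose body lies within that of Olfr78, holds some of the same intervals in its territory. The Olfr78 intervals with folds of 2.19 (MEF) and of 2.23 and 2.40 (mESC) were wholly soft-masked. None of the 50-base words starting in them occurred once in the genome, so reads there could have come from other copies.

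The 50 bp interval before Olfr633 was listed at 5.17 for MEFs and 5.72 for mESCs, again with identical coordinates, 1.14 kb ahead of the gene. At Olfr601 a MEF interval with a fold of 5.17 covered the end of the gene, and an mESC interval with a fold of 3.43 overlapped it. An 800 bp mESC interval 1.40 kb from Olfr592 had a fold of 5.11 and overlapped MEF intervals of 2.13 and 2.37. An mESC interval 3.68 kb from Olfr691 had a fold of 5.01 and a MEF counterpart of 3.47. It was wholly soft-masked, and 2.67% of the 50-base words starting in it occurred once in the genome, so reads there could have come from other copies.

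**Figure D1:**
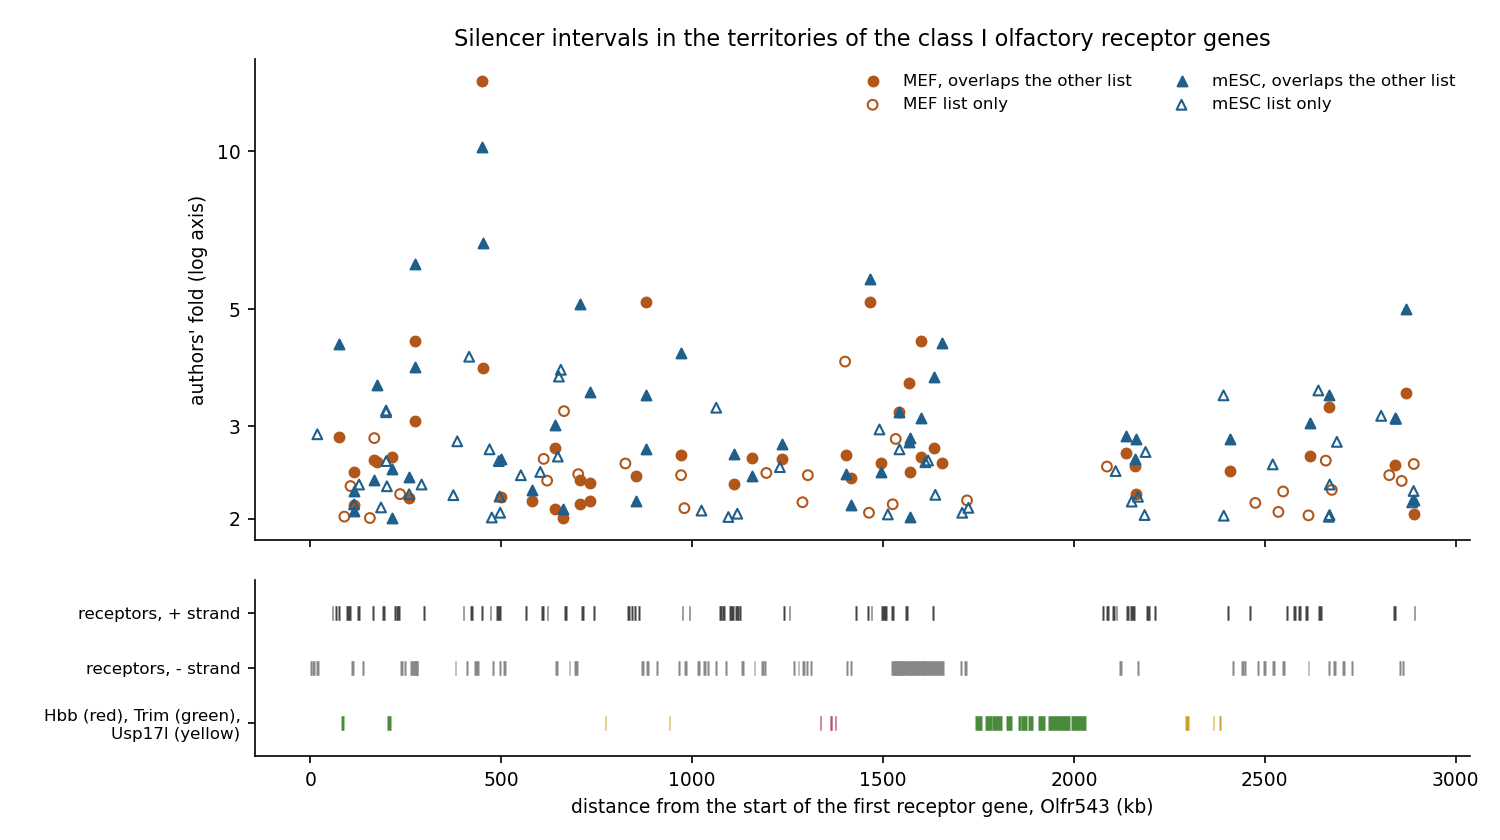
Each point is an interval in a member's territory, placed by its distance from the start of Olfr543 in kb (horizontal axis) and by the authors' fold on a log axis (vertical axis). Filled symbols overlap the other list and open symbols do not. The lower panel draws the gene bodies. The highest points, at folds of 13.6 and 10.2, are the shared Olfr572 interval. The 5 beta-globin genes lie outside the member territories, so no point could be drawn over them.

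Across the cluster, the interval densities were close to those of protein-coding genes in general. The merged member territory spans 2.04 Mb in 23 blocks. It held 37.2 MEF intervals per Mb (95% exact Poisson interval 29.3 to 46.6) and 48.0 mESC intervals per Mb (39.0 to 58.5). Over all protein-coding territories the densities were 37.2 and 48.3 per Mb, so the cluster stood at 1.00 times (0.789 to 1.25) and 0.995 times (0.807 to 1.21) the general value. The other 1006 Olfr genes gave 37.2 and 48.3 per Mb. Genes of a body length between the 10th and 90th percentile of the members, 1.41 to 9.52 kb, gave lower values of 32.1 and 43.9 per Mb. The Poisson and binomial intervals here cover counting error only.

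Olfr genes of 12 other chromosomes or chromosome parts ranged from 29.7 per Mb (chromosome 4) to 48.1 (chromosome 19) in the MEF list. In the mESC list they ranged from 20.5 (chromosome 1) to 59.4 (chromosome 4). The cluster lay inside both ranges, with 6 of the 12 groups below it in MEFs and 3 in mESCs. The 12 groups were those with the most Olfr genes, the smallest holding 24 (chromosome 4), and chromosomes with fewer were left out.

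**Figure D2:**
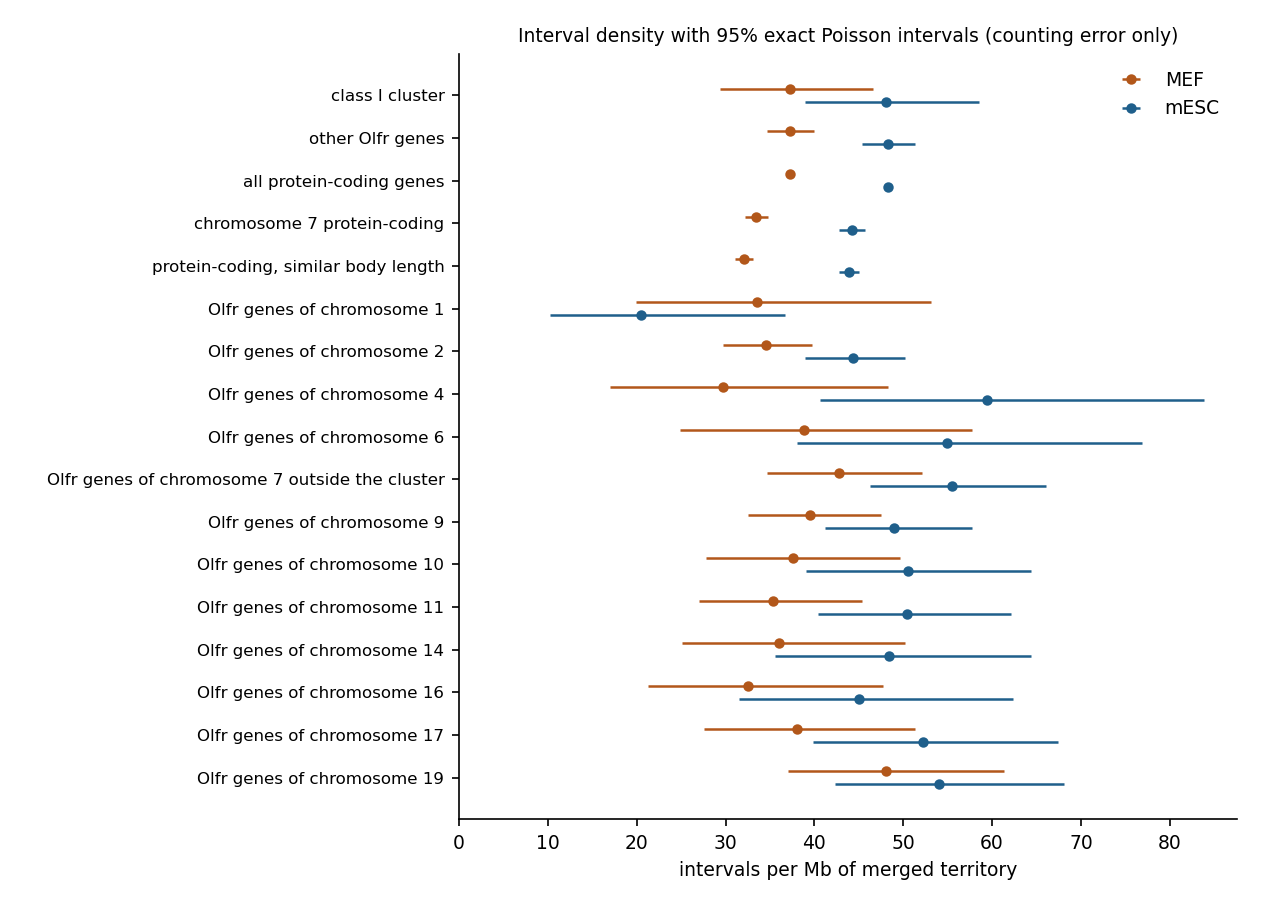
Points give intervals per Mb of merged territory for each group of genes, with bars for the 95% exact Poisson interval. The class I cluster stands at 37.2 (MEF) and 48.0 (mESC), beside 37.2 and 48.3 for all protein-coding genes, while the Olfr genes of chromosome 1 have the lowest mESC value, 20.5.

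Counted gene by gene, 81 of 129 members (62.8%, exact binomial interval 53.8 to 71.1) had at least 1 MEF interval, against 68.5% of all protein-coding genes. At least 1 mESC interval was found in 93 members (72.1%, 63.5 to 79.6), against 75.5%. Intervals of each list occurred in 65 members (50.4%), against 62%, and 20 members (15.5%) had none of either list, against 18%. More mESC than MEF intervals were counted in 57 members (44.2%), against 45.6%, and more MEF than mESC intervals in 35 (27.1%), against 19.9%. The median member held 1 MEF and 1 mESC interval, and the median protein-coding gene 1 and 2.

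Gene length enters these counts, since the median member body was 6.14 kb and the median protein-coding body 17.4 kb. Of the 6393 genes of similar body length, 49.6% had a MEF interval, 59.3% an mESC interval and 31.1% none. The other Olfr genes had 57.8%, 67.3% and 22.8%. Members also share intervals: 49 of the 76 MEF and 59 of the 98 mESC intervals lay in more than 1 territory, and an interval lay in up to 4. Members are therefore not independent counts.

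**Figure D3:**
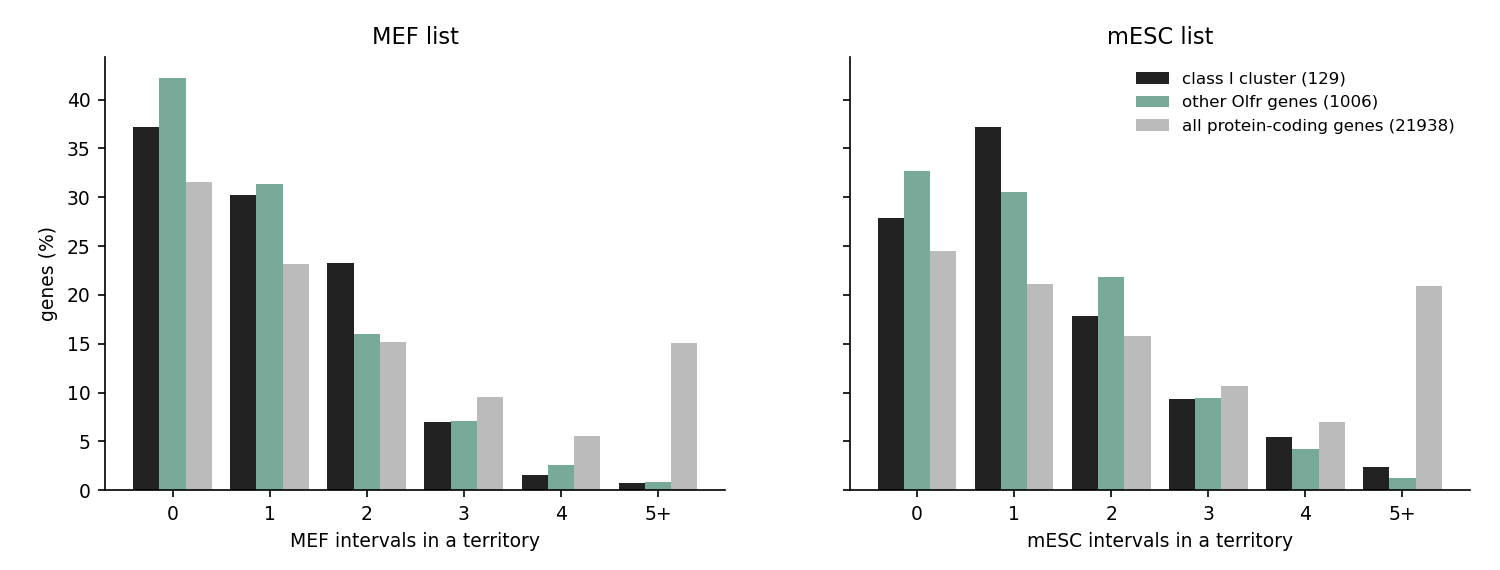
Bars give the percentage of genes with 0 to 4 or at least 5 intervals in their territory, for the MEF list (left) and the mESC list (right). Of the 129 cluster members 37.2% had no MEF interval and 27.9% no mESC interval. At least 5 MEF intervals were found in 0.775% of members and in 15.1% of all protein-coding genes.

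Olfr643 held the most intervals, 9 in the MEF list and 12 in the mESC list. Its annotated body of 138.6 kb is the longest of the cluster and overlaps 8 other members, so most of these intervals are also counted there. Olfr78 followed with 3 MEF and 5 mESC intervals, then Olfr550 with 4 and 3 and Olfr683 with 3 and 4. Olfr551, Olfr552, Olfr554, Olfr586, Olfr657 and Olfr684 held 6 each in all. Among them Olfr554 had 4 MEF and 2 mESC intervals, and Olfr551 had 3 of each.

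The largest excess of mESC intervals was at Olfr556, with 5 mESC intervals (folds 2.10, 3.21, 3.19, 2.57 and 2.31) and none in the MEF list. Olfr643 exceeded by 3, and so did Olfr576 and Olfr577, which overlap each other and hold 1 MEF and 4 mESC intervals each. In the other direction the largest excess was 2, at Olfr554 and at neighbouring pairs such as Olfr591 and Olfr592, or Olfr606 and Olfr607, with 3 MEF and 1 mESC interval each. The MEF intervals of Olfr554 had 47.4%, 23%, 75% and 52% of their 50-base words unique, and its mESC intervals 0% and 52%. Of the members with intervals of a single list, 28 had mESC intervals and 16 had MEF intervals. Over all protein-coding genes, 75.5% had an mESC interval, 68.5% a MEF interval and 62% intervals of each list. Genes with mESC intervals alone were thus the more common there too. Among members the same shares were 72.1%, 62.8% and 50.4%, so intervals of a single list were more frequent than over all protein-coding genes. Among genes of similar body length they were 59.3%, 49.6% and 39.9%, which puts the single-list shares nearer those of the members. These differences were not tested.

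**Figure D4:**
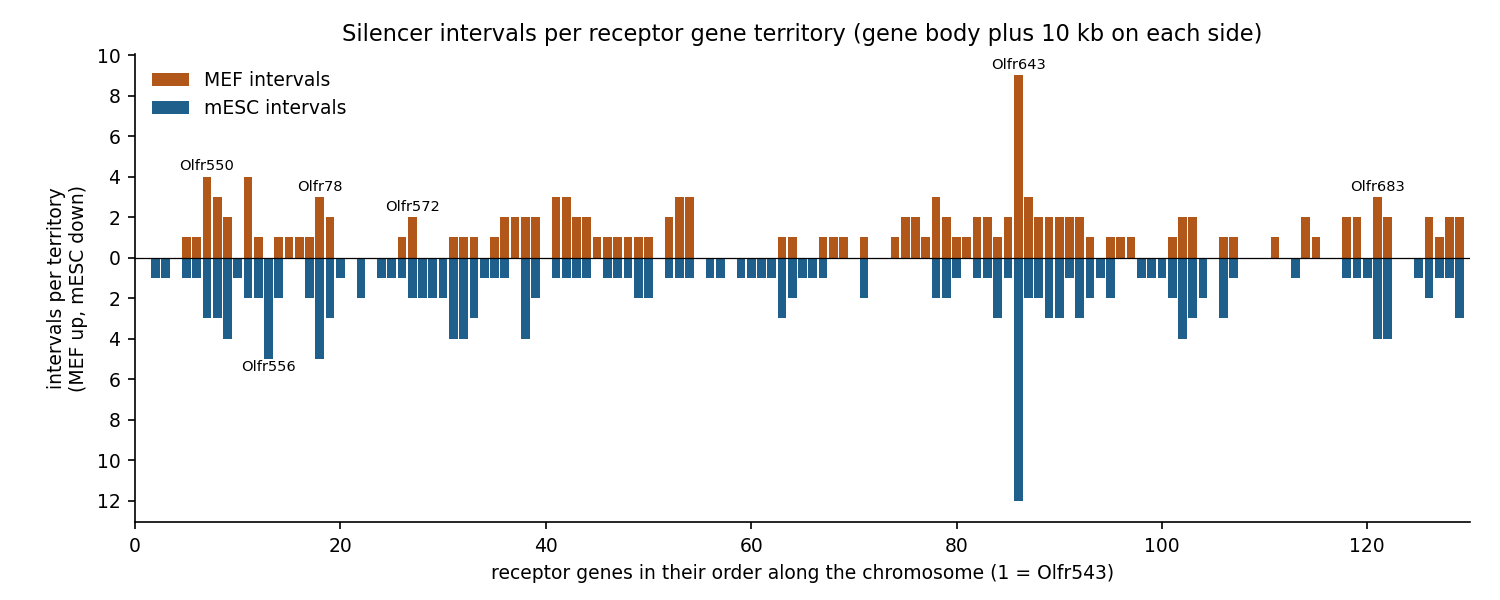
Bars give the number of MEF intervals (up) and mESC intervals (down) in each of the 129 territories, in chromosome order from Olfr543. Olfr643 stands out with 9 and 12, and Olfr556 has 5 mESC and no MEF interval.

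The receptors chosen for their known ligands were Olfr78, described above, Olfr543, Olfr544, Olfr545, Olfr558, Olfr690 and Olfr691. Olfr544, a receptor for the dicarboxylic acid azelaic acid, and its neighbour Olfr545 shared 1 mESC interval with a fold of 2.89 and had no MEF interval. Olfr543, the first member, had none of either list. Olfr558, a receptor for short-chain fatty acids, had 1 MEF interval (2.23) and no mESC interval. At the far end Olfr690 had 1 of each (2.36 in MEFs, 3.10 in mESCs), and Olfr691 had 2 MEF intervals and 1 mESC interval. Of these 7 receptors, 4 had a MEF interval and 5 an mESC interval, beside 62.8% and 72.1% of all members and 68.5% and 75.5% of all protein-coding genes. Their merged territory held 40.6 MEF and 54.1 mESC intervals per Mb, near the cluster's 37.2 and 48.0. Olfr692, the last member of the cluster and not in that set, had 2 MEF and 3 mESC intervals, all with folds under 3.

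A minority of intervals touched receptor coding sequence or gene starts. Member coding sequence was overlapped by 6 MEF (7.89%) and 6 mESC intervals (6.12%), counting the pair not reported here. Midpoints lay in it for 3 MEF (3.95%) and 4 mESC intervals (4.08%), and it made up 5.98% of the member territory. Olfr552 had a wholly coding mESC interval of 100 bp (2.32) and Olfr675 a wholly coding MEF interval of 50 bp (2.25), and Olfr680-ps1 had a wholly coding MEF interval of 300 bp (2.03). Intervals partly in coding sequence were found at Olfr64 and Olfr657 (MEF), Olfr577, Olfr658 and Olfr683 (mESC) and Olfr576 (both lists). The wholly coding intervals at Olfr552 and Olfr675 are shown because they place a listed silencer inside the sequence that encodes a receptor. Olfr552 is on the plus strand, so its letters read in the coding direction, and Olfr675 is on the minus strand.
Olfr552 coding, chr7:102604451-102604550: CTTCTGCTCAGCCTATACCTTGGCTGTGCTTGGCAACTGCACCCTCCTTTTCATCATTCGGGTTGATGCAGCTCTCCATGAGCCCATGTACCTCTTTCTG
Olfr675 coding, chr7:105024559-105024608: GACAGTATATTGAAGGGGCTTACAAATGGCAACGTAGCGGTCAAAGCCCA

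Of the start windows, 250 bases before to 50 after the annotated start, Olfr551 was the one with an interval in both lists. Its 150 bp interval had identical coordinates and folds of 2.13 in MEFs and 2.26 in mESCs, and had no soft-masked base. The 114 bases of it that lie ahead of the gene, which is on the minus strand, are printed as the stretch of receptor promoter listed in both cell types.
before Olfr551, chr7:102591887-102592000: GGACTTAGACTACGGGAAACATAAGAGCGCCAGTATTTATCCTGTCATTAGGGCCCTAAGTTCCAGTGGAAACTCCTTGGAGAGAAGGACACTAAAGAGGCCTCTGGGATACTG
MEF intervals also lay over the starts of Olfr591 (2.43), Olfr624 (2.44) and Olfr68 (2.42), and an mESC interval over that of Olfr681 (3.51). In all, 4 MEF (5.26%) and 2 mESC intervals (2.04%) touched a start window. Start-window and coding overlaps were not counted over all protein-coding genes, so these counts have no general share beside them. In both lists 11 intervals (14.5% of MEF and 11.2% of mESC intervals) had their midpoint within 1 kb of a member start. Bases within 1 kb of a start made up 12.6% of the member territory, near both shares.

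By sequence class, MEF intervals covered 0.803% and mESC intervals 1.14% of the merged territory. Introns of members were covered by mESC intervals at 1.58% and by MEF intervals at 0.852%. In the 3 prime UTRs the order was the other way, 0.590% in mESCs and 1.05% in MEFs, and 10 MEF and 7 mESC midpoints lay there. Coding sequence was covered at 0.754% (MEF) and 0.657% (mESC), and the bases within 1 kb of a start at 0.674% and 0.733%. Soft-masked sequence was covered at 0.955% and 1.40%, against 0.704% and 0.963% outside it. Interval bases were 46.8% masked in MEFs and 48.6% in mESCs, beside 39.3% for the territory, and their GC content was 41.0% and 41.5% beside 38.9%. These are descriptions of 16.4 and 23.2 kb of sequence, and the part of mapping or fragment recovery in them was not tested.

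Many of the cluster's intervals were listed in both cell types. An mESC interval overlapped 46 of the 76 (60.5%, with exact binomial bounds of 48.6 and 71.6), beside 47.3% of the whole list and 49.1% of those at other Olfr genes. Of the 98 mESC intervals, 45 (45.9%, 35.8 to 56.3) overlapped a MEF interval, beside 36.6% and 37.4%. The MEF bounds leave out the whole-list value and the mESC bounds include it. Among cluster intervals with at least 90% of 50-base words unique, the shares were 52.8% of 53 MEF intervals (38.6 to 66.7) and 42.0% of 69 mESC intervals (30.2 to 54.5), and both of these bounds include the whole-list values. The MEF bounds also included 47.3% with gene bodies alone (62.9%, 44.9 to 78.5) and with a flank of 25 kb (57.6%, 46.4 to 68.3). They also did so at or above the list median fold (60.4%, 45.3 to 74.2) and under 50% soft-masked (50%, 34.6 to 65.4). With a flank of 5 kb (62.7%) and without Olfr643 (60%), the MEF bounds left out 47.3%. The same held with intervals assigned by midpoint and with starts counted from 0, both at 60.5%. The uniqueness, fold and masking settings removed intervals from both lists before overlaps were sought. The whole-list values were not filtered in that way, so they are not a matched reference for those settings. Among the Olfr genes of the 12 other groups, the MEF share ran from 40% to 81.3%, and the cluster's was above that of 10 of them. The mESC share ran from 31.9% to 90.9%, and the cluster's was above that of 11 of them. The mESC list supplied 56.3% of all 174 cluster intervals (48.6 to 63.8), beside 56.2% over both whole lists.

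Folds in the cluster had a median of 2.46 in MEFs and 2.58 in mESCs, beside list medians of 2.36 and 2.42. A fold of 4 or more was given for 5 MEF intervals (6.58%, whole list 5.92%) and 10 mESC intervals (10.2%, whole list 7.99%). Intervals that overlapped the other list had higher median folds than the rest, 2.58 against 2.36 in MEFs and 2.83 against 2.42 in mESCs, an order also seen in the whole lists (2.46 against 2.29 and 2.53 against 2.36). They formed 49 overlapping pairs, and in 10 the coordinates were identical. The mESC fold was the higher in 34 pairs. The scaling of the fold is not given and the mESC list has the higher median, so this count is not read as a difference between cell types. Some intervals enter more than 1 pair. Across these pairs Spearman's rho was 0.481 and Pearson's r of the log2 folds 0.634, or 0.468 without the Olfr572 pair. The pairs share the input library, so this is a description.

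**Figure D5:**
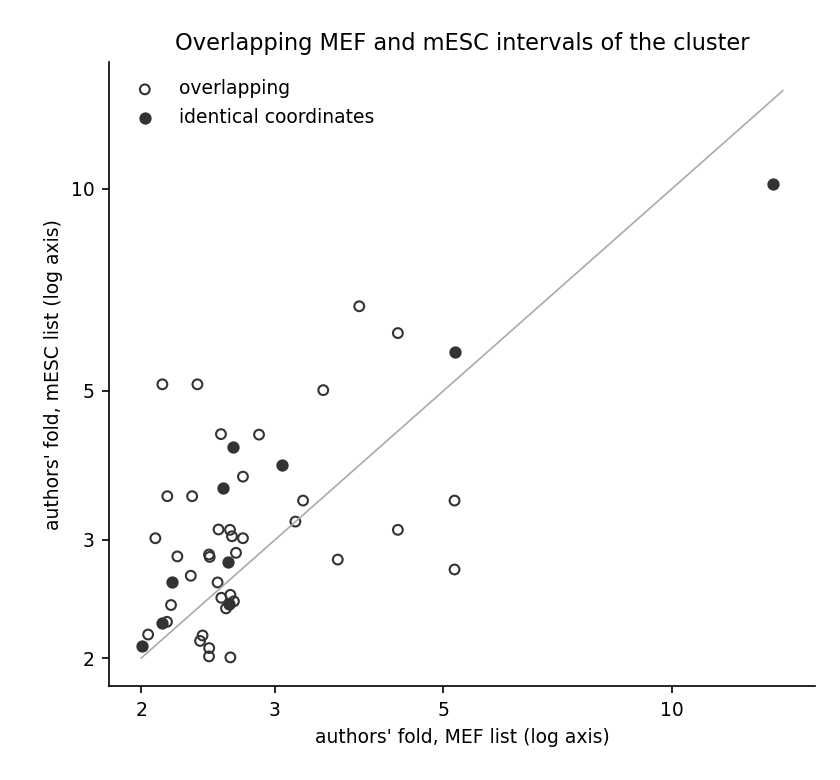
Each point is 1 of 49 overlapping pairs of a MEF and an mESC interval, placed by the authors' fold in each list on log axes, with the line of equal folds. In 34 pairs the mESC fold is the higher, which is not read as a difference between cell types. The Olfr572 interval is the point at 13.6 and 10.2.

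Some stretches of the cluster held no interval of either list, with or without other genes in them. The longest stretch with no interval of either list, 130.4 kb, held no receptor gene but Trim34a, Trim5, Trim12a, Trim34b and Trim12c, a family of antiviral and ubiquitin ligase genes. There 66.8% of 50-base words were unique, beside 84.9% of the member territory. The next, 97.4 kb, held Olfr67 and all 5 beta-globin genes (Hbb-bt, Hbb-bs, Hbb-bh2, Hbb-bh1 and Hbb-y), with 84.6% of words unique. The merged globin territory of 60.7 kb had 0 intervals in each list, a count that allows up to 60.8 per Mb by the exact Poisson limit, above the general densities. A further stretch of 92.3 kb held Olfr651.

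In all, 9 stretches reached 50 kb, and 19 members had their whole body in one. The median stretch was 11.1 kb. The 20 members with no interval were Olfr543, Olfr547, Olfr564, Olfr568, Olfr589, Olfr603, Olfr608, Olfr611, Olfr625-ps1, Olfr628, Olfr629, Olfr661, Olfr667, Olfr668, Olfr669, Olfr671, Olfr677, Olfr678, Olfr685 and Olfr686. Several are neighbours: Olfr667, Olfr668 and Olfr669 lay on the same stretch, as did Olfr677 with Olfr678, Olfr628 with Olfr629 and Olfr685 with Olfr686. Their merged territories had 86.0% of 50-base words unique, and those of the members with an interval 84.7%.

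Among the 23 blocks of merged territory, the block of Olfr554, Olfr555 and Olfr556, 54.8 kb long, held 4 MEF and 7 mESC intervals. The block of Olfr566 to Olfr578, 154.0 kb with 12 members, held 3 MEF and 11 mESC intervals, whereas that of Olfr584 to Olfr594, 160.4 kb with 9 members, held 11 and 8. The longest block, Olfr665 to Olfr680-ps1 with 14 members over 234.8 kb, held 6 and 5. Olfr564 and Olfr603 each form a block of their own with 0 intervals of either list. The balance of both lists differed from block to block, and these differences were not tested.

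The members fall into 3 segments around the globin and Trim genes. The 77 members before the globin genes had 36.4 MEF and 47.0 mESC intervals per Mb. The 18 from the globin to the Trim genes, Olfr66 to Olfr649, had 51.0 (29.1 to 82.7) and 60.5 (36.4 to 94.5). Of them, 17 had a MEF and 17 an mESC interval, not all the same members, beside 68.5% and 75.5% of all protein-coding genes. These 18 include Olfr643 and the 8 members that its body overlaps, which share intervals, so they are not independent counts. The 34 after the Trim genes had 31.7 and 43.3, with 18 members holding a MEF and 20 an mESC interval. The counting intervals of all 3 segments overlap. Of the 12 Trim genes of the window 7 had an interval of each list and 5 had none, beside 62% and 18% of all protein-coding genes. Of the 5 Usp17l genes, which encode deubiquitinating enzymes, 3 had a MEF and 5 an mESC interval, beside 68.5% and 75.5%.

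Genes of the olfactory signalling cascade and of receptor choice lie elsewhere, apart from Cnga4, which lies just past the cluster, and Omp and Atf5 on the same chromosome. Of 16 signalling genes 12 had a MEF and 14 an mESC interval. Cnga4, a subunit of the olfactory cyclic nucleotide-gated channel, had 1 MEF and 2 mESC intervals, while Omp, the marker protein of mature olfactory neurons, and Gng13, a G protein subunit, had 0 of each. Of 11 genes linked to receptor choice, 8 had a MEF and 10 an mESC interval. Lhx2, a transcription factor needed for receptor expression, had 0 MEF and 2 mESC intervals, and its cofactor Ldb1 had 4 and 4. Ebf1, with a body of 390.8 kb, had 18 and 22. These lists were described by counts, against the 68.5% and 75.5% of all protein-coding genes given above.

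Motif letters that such factors or factors of these cells are known to bind were counted on both strands. The search covered a window of 300 bp centred on each interval's midpoint, not the interval itself. TAATTA, a homeodomain core that LHX2 binds, was in the windows of 7 of 76 MEF intervals (9.21%) and 14 of 98 mESC intervals (14.3%). It was in 12.1% of 6788 windows of 300 bp tiled over the member territory. CCCNNGGG, the letters of the EBF site, were in 2 (2.63%) and 4 (4.08%), beside 2.93%. ATGCAAAT, the octamer bound by POU factors such as OCT4, was in 1 and 2, beside 3.26%. TGANTCA was in 5 (6.58%) and 6 (6.12%), beside 7.81%. CACGTG, an E-box, was in 0 of 76 and 0 of 98, which allows up to 4.74% and 3.69% by the exact binomial limit, beside 1.77%. Interval lengths run from 50 to 800 bp, so a window can reach past its interval or leave part of it out. For each of the 5 patterns the territory value lay inside the exact binomial bounds of the cluster share in both lists, which are wide at these counts.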

How the data were processed

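Per the submitters' processing notes, Bowtie2 and SAMtools were used on the Ss-STARR-seq reads. Those notes name hg38 and the series design names mm10; the number of intervals past an mm10 chromosome end was 0, and mm10 was used. The authors deposited 1 interval list per cell type with a linear fold ratio per interval. The caller, the pooling of libraries and the fold's direction are not stated there. With no counts in the lists, depth per interval is unknown. About 40.7% of starts lay 1 past a multiple of 50 bp, so positions carry an uncertainty of 1 bp.

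Territories, overlaps of at least 1 bp, exact binomial and Poisson intervals, repeats and unique 50-base words were computed with Python 3.11.15, NumPy 2.4.6, pandas 2.3.3 and SciPy 1.17.1 on GRCm38.p6 and GENCODE M21, and the overlap functions were tested on simulated data. Members and gene lists were chosen with earlier results of these data known. Named genes were those with the most intervals, the largest excess in either list, the highest folds, coding or start-window intervals, known ligands, the cluster ends and the longest gap; the members with no interval and the blocks were named after their values were seen. An interval pair in receptor coding sequence is not reported here.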

Additional observations from a re-analysis of the deposited data

How the results depend on the processing

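Of 80 values recomputed under other settings, 58 stayed inside the counting interval of the reported value and 22 did not. No value could be recomputed without a library, because each cell type has 1 list. No paired analysis was possible because the lists carry no replicate numbers. Members with a MEF or an mESC interval were 23.3% and 19.4% with the gene body alone, beside 45.3% and 50.5% of all protein-coding genes. With a flank of 5 kb they were 45.7% and 51.9% (all genes 58.5% and 65.6%), and with 25 kb 88.4% and 89.9% (83.9% and 88.9%). At or above the list median fold they were 48.8% and 55.0% (all genes 49.7% and 56.8%). At a fold of 3 or more they were 15.5% and 32.6% (26.4% and 36.7%), and in intervals under 50% soft-masked 44.2% and 54.3% (54.1% and 59.9%). In intervals of at least 90% unique words, a setting chosen after seeing the data, they were 50.4% and 61.2%. Uniqueness was computed in the cluster window only, so that setting has no matched general share. The median member body is shorter than the median protein-coding body, so none of these comparisons is matched for length. Density relative to all protein-coding genes was 1.30 (MEF, 0.961 to 1.73) and 1.26 (mESC, 0.961 to 1.62) at or above the list median fold. At a fold of 3 or more it was 0.974 (MEF, 0.519 to 1.67) and 1.44 (mESC, 0.971 to 2.05). Each of these counting intervals includes a ratio of 1. At a fold of 3 or more, 76.9% of 13 MEF and 33.3% of 30 mESC intervals overlapped the other list and the mESC share was 69.8%. With overlap of 50% of both intervals, the shared percentages were 44.7% and 34.7%. The other settings, among them midpoints, starts counted from 0 and, chosen after seeing the data, leaving out Olfr643, moved no value out of its interval. Another set of comparison genes leaves the members' own percentages as they are by construction. With genes of similar body length, also chosen after seeing the data, the comparison values fell from 68.5% to 49.6% (MEF) and from 75.5% to 59.3% (mESC), which puts the members above rather than below them, and the relative densities were 1.16 and 1.09. Few intervals per member and the absence of counts limit the precision.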
